A study of Mus musculus with 8 samples.

Results

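The 10 genes described here are *Sox9*, *Wt1*, *Gata4*, *Rhox5*, *Amh*, *Inhbb*, *Fshr*, *Kitl*, *Clu* and *Cldn11*, markers of the Sertoli cell that were read in RNA prepared from mouse germ cells. They were found by gene name among the 55357 genes of the deposited table, each at 1 row, and all 10 passed the filter on low values. The RNA came from 8 males killed at 15 days after birth. The 4 controls were *Mgat2*[F/F] and the 4 cKO mice were *Mgat2*[F/F]:*Stra8*-iCre, so the mice of both genotypes carried floxed *Mgat2* alleles on a C57BL/6 background and only the cKO mice carried the Cre. The *Stra8* promoter drives this Cre in spermatogonia, and the deletion was thus directed at germ cells and not at Sertoli cells. Tubules were opened with collagenase, dispersed with trypsin and filtered, and the stated protocol for this age names no sort of the cells. Each mouse gave 1 library. The genotype comparison of these genes asks how much Sertoli RNA each preparation held, and whether that amount differed between control and cKO.

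Sertoli cells are the somatic cells of the seminiferous tubule. They surround and feed the germ cells, form the junctions of the blood-testis barrier between them, and answer to follicle-stimulating hormone and androgen. SOX9, WT1 and GATA4 set and maintain their identity, and the cells secrete hormones and growth factors that act on germ cells and on the rest of the body. In RNA of a bulk preparation, fewer Sertoli cells and less RNA per Sertoli cell cannot be told apart.

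The total of expected counts per library, the reads that RSEM assigned to genes, ran from 12584726 to 15907505 in control and from 14069373 to 15572196 in cKO. The members stood far above the floor of 3 counts taken as the smallest signal, since the lowest count of any of them was 221, for *Rhox5* in cKO 4. *Mgat2*, the targeted gene, had 45.6, 21.7, 42.8 and 41.4 TPM (a level scaled for transcript length and library depth) in control 1 to 4 and 23.0, 13.4, 24.9 and 10.9 TPM in cKO 1 to 4, so that control 2 lay below 2 of the cKO libraries. The log2 fold change of *Mgat2* was -1.05 (SE 0.36), with an adjusted p of 0.47 by edgeR and 0.025 by DESeq2. In these non-stranded libraries 304 of the 2614 exonic bases of *Mgat2* overlap *Rpl36al* on the other strand, which was itself at 103 to 532 TPM. Germ cell markers were read in every library, with *Dazl*, an RNA-binding protein of germ cells, at 398 ± 46.4 TPM (SD, n = 4) in control and 448 ± 27.8 TPM (SD, n = 4) in cKO. *Ddx4*, an RNA helicase of germ cells, was at 176 ± 25.3 TPM (SD, n = 4) and 132 ± 9.46 TPM (SD, n = 4). *Gfra1*, the lowest of the 8 germ cell markers, was at 5.135 ± 0.853 TPM (SD, n = 4) and 12.3 ± 11.7 TPM (SD, n = 4). Sertoli cell genes were present beside these markers in every library. By mean TPM over 8 libraries, *Clu* ranked 15 of all genes, above *Dazl* at 246 and *Ddx4* at 944. No library of whole testis was among the 8, so enrichment of germ cells was not tested.

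Upstream sequence was at hand for 5 of the 10 genes, *Rhox5*, *Cldn11*, *Fshr*, *Inhbb* and *Kitl*, and not for *Sox9*, *Wt1*, *Amh*, *Gata4* and *Clu*. These are RefSeq sequences of the older build GRCm38.p6, whereas gene positions further on are of GRCm39. The windows are the 250 bases before the annotated start, and 4 of the 5 are shown because each holds 1 match, in capitals, to a motif of a factor or element known from Sertoli cells or from promoters at large. The letters searched, on both strands, were AGATAA for GATA factors, with TGATAA as a further spelling of that motif, AGATAG as another spelling and TGATAG as the last, then ACAAT for SOX factors, CACGTG for the E-box and TATAAA for the TATA box.

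*Fshr* (chr17:89200676-89200925, reverse strand): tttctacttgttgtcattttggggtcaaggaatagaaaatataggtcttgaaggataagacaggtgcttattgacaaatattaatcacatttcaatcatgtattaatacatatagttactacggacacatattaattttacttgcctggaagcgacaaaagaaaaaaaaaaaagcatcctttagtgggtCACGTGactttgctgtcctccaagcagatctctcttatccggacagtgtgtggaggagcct
*Inhbb* (chr1:119422249-119422498, reverse strand): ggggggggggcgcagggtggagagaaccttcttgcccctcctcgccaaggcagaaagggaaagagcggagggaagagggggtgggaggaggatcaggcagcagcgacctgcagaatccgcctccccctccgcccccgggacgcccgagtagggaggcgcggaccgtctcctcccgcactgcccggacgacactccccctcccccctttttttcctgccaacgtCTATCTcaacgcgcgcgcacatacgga
*Rhox5* (chrX:37754358-37754607, forward strand): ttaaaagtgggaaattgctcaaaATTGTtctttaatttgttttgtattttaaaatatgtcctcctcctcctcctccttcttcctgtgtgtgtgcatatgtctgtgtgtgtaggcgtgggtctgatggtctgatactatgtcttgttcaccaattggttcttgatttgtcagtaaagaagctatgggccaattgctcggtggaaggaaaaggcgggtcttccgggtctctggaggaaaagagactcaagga
*Kitl* (chr10:100015571-100015820, forward strand): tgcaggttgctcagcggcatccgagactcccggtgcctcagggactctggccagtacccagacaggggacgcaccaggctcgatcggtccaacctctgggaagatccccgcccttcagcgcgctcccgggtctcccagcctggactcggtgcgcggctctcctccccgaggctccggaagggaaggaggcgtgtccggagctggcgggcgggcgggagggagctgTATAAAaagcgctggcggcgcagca

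The E-box of *Fshr* began 61 bases before the start, and 6.02% of the 32851 windows of this length in the RefSeq table hold those letters. The GATA letters of *Inhbb*, read on the other strand as CTATCT, began 27 bases before the start, against 26.5% of windows with 1 of the 4 GATA spellings. In *Rhox5* the SOX letters, read as ATTGT, began 227 bases before the start (27.7% of windows), and in *Kitl* the TATA letters began 25 bases before it (12.4% of windows). The *Cldn11* window (chr3:31149670-31149919, forward strand) held none of these letters. The matches describe the sequence and are not shown binding sites.

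All 10 genes were found in all 8 libraries, and their summed level overlapped between control and cKO. Summed over the 10 genes, the level was 4814, 5503, 5294 and 5848 TPM in control 1 to 4 and 4915, 5728, 5879 and 5857 TPM in cKO 1 to 4. Replicate 1 was the lowest library of each genotype, and the genotypes overlapped. The sum came to between 0.481% and 0.585% of all TPM in control and between 0.492% and 0.588% in cKO. *Clu* made most of it, and without *Clu* the sum ran from 1060 to 1306 TPM in control and from 1084 to 1314 TPM in cKO.

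Ordered by mean TPM in control, a scale on which genes can be compared, the genes ran *Clu*, *Cldn11*, *Wt1*, *Amh*, *Gata4*, *Inhbb*, *Kitl*, *Sox9*, *Rhox5* and *Fshr*. Between *Clu* and *Cldn11*, *Cldn11* and *Wt1*, *Wt1* and *Amh*, *Inhbb* and *Kitl*, and *Rhox5* and *Fshr*, the lowest of 8 values of the one lay above the highest of the other. Among *Amh*, *Gata4* and *Inhbb*, and among *Kitl*, *Sox9* and *Rhox5*, the ranges of neighbours over the 8 libraries overlapped. Within a library, *Amh* was nevertheless above *Gata4* in 8 of 8, *Gata4* above *Inhbb* in 6 of 8, *Kitl* above *Sox9* in 7 of 8 and *Sox9* above *Rhox5* in 7 of 8. By mean over 8 libraries *Clu* was the 15th of all 55357 genes, *Cldn11* ranked 189, *Wt1* ranked 518 and *Fshr*, the lowest of the 10, ranked 7766.

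**Figure D1:**
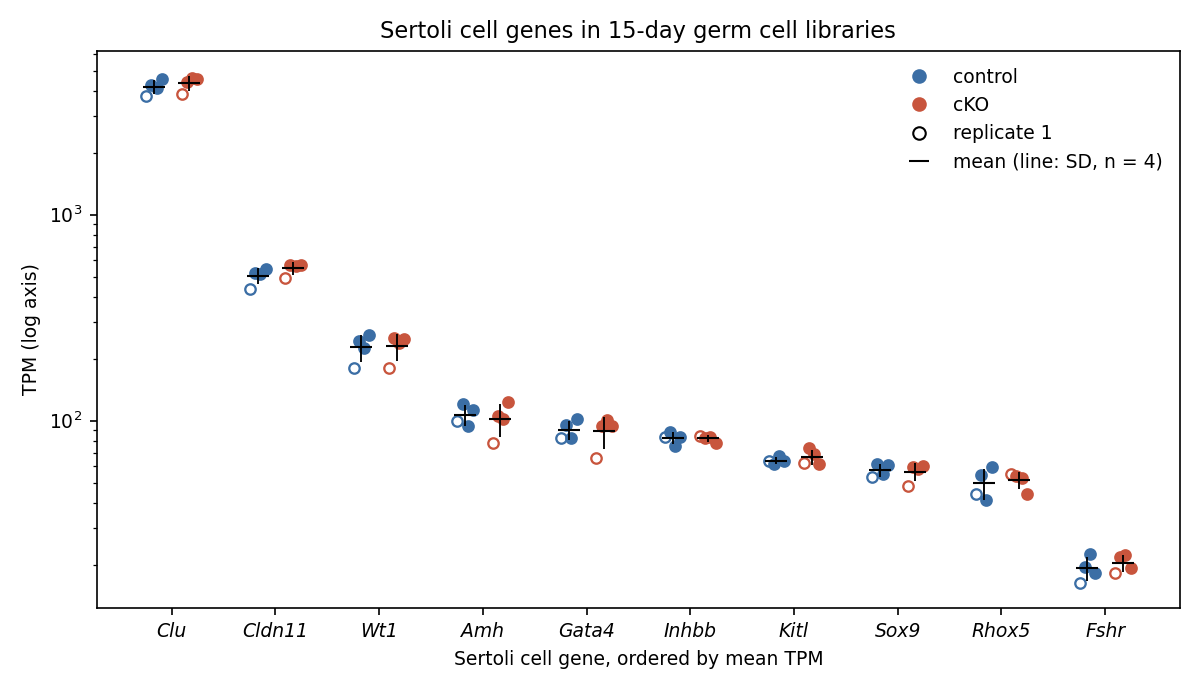
Level of each of the 10 Sertoli cell genes in TPM on a log axis, ordered by mean, with 1 point per library, open points for replicate 1, and the mean with SD (n = 4) per genotype. *Clu* stands at 3754 TPM or more in all 8 libraries and *Fshr* at 22.4 TPM or less, and the control and cKO points overlap for every gene.

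None of the 10 genes passed the test between genotypes. With edgeR's quasi-likelihood test, 0 of 10 had an adjusted p under 0.05, where 0.0396% of the 20187 genes tested did (8 genes, all lower in cKO), and 0 of 10 had an unadjusted p under 0.05, where 8.90% of all genes did. DESeq2 called 0 of 10 genes (1.50% of all genes). With limma, 0 of 10 and also 0 of all 20187 genes were called, so its count could not set the members apart. The values of the genotypes stood apart in 0 of 10 genes (5.50% of all genes). Log2 fold changes, cKO over control, lay between -0.04 and 0.14, with standard errors between 0.07 and 0.15 and adjusted p between 0.62 and 0.99. The median was 0.06, with 8 genes above 0 and 2 below, against a median of 0.01 over all genes tested. A missed threshold does not show equal levels, but the 95% intervals bound the difference. All 10 lay inside a 1.5-fold change either way, 8 of 10 inside a 1.25-fold change, and the widest ends were 0.813-fold and 1.318-fold. Replicates were separate mice, so these intervals cover the spread between animals.

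Of the transcription factors, *Sox9* (ENSMUSG00000000567, chr11:112673009-112678586, forward strand), which drives the fate of the Sertoli cell in the embryo and stays on afterwards, had 53.1, 61.8, 55.0 and 60.9 TPM in control 1 to 4 and 48.2, 59.4, 58.6 and 60.5 TPM in cKO 1 to 4. The lowest value was that of cKO 1, and the other 3 cKO libraries lay within the range of the controls. The log2 fold change of *Sox9* was -0.01 (SE 0.08, 95% interval -0.18 to 0.16, adjusted p = 0.99). Of its 4176 exonic bases, 542 overlap exons of the non-coding gene *BC006965* on the other strand. As the libraries were not stranded, reads there cannot be assigned to a strand, and *BC006965* was itself at 0 to 4.09 TPM.

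*Wt1* (ENSMUSG00000016458, chr2:104956625-105003961, forward strand), a zinc finger factor needed to keep Sertoli cell identity, was the highest of the 4 factors. Its level was 180, 243, 225 and 261 TPM in control 1 to 4 and 179.5, 252, 238 and 249.9 TPM in cKO 1 to 4. Replicate 1 was the lowest of both genotypes, at nearly the same level in each. The genotype difference was 0.05 on the log2 scale (SE 0.11, 95% interval -0.20 to 0.30, adjusted p = 0.94). *Wt1* shares 246 of 6444 exonic bases with the antisense gene *Wt1os*, which was at 7.38 to 14.1 TPM.

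*Gata4* (ENSMUSG00000021944, chr14:63436362-63509141, reverse strand), a GATA factor of somatic cells of the gonad, had 82.8, 95.2, 82.0 and 102 TPM in control 1 to 4 and 65.8, 94.2, 101 and 94.4 TPM in cKO 1 to 4. Here cKO 1 lay below every other library, while the remaining 3 cKO libraries lay inside the control range. The fitted difference was 0.03 (SE 0.12, 95% interval -0.22 to 0.28, adjusted p = 0.97).

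*Rhox5* (ENSMUSG00000095180, chrX:36891636-36897311, forward strand), an X-linked homeobox factor that androgen induces in Sertoli cells, ran differently from the other 3 factors. It had 44.1, 54.4, 41.3 and 59.3 TPM in control 1 to 4 and 55.1, 54.2, 53.0 and 44.1 TPM in cKO 1 to 4, so that the highest cKO value was in replicate 1 and the lowest in replicate 4. Its log2 fold change was 0.07 (SE 0.15, 95% interval -0.25 to 0.40, adjusted p = 0.92), with the largest standard error of the 10 genes. *Rhox5* had the fewest counts of the group, 221 to 324 per library, and shares 168 of 1527 exonic bases with the non-coding gene *Gm61728* on the other strand.

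The hormones came next. *Amh* (ENSMUSG00000035262, chr10:80641077-80643482, forward strand), anti-Müllerian hormone, the product of immature Sertoli cells, had 99.2, 120.3, 93.8 and 113 TPM in control 1 to 4 and 77.9, 106, 102 and 123 TPM in cKO 1 to 4. The cKO libraries held both the lowest and the highest value, with all controls between them. The log2 fold change was -0.04 (SE 0.12, 95% interval -0.30 to 0.21, adjusted p = 0.95). *Inhbb* (ENSMUSG00000037035, chr1:119343193-119350021, reverse strand), the beta B subunit of inhibin B and activin B, had 83.2, 88.0, 75.5 and 83.8 TPM in control 1 to 4 and 84.0, 82.8, 83.4 and 77.8 TPM in cKO 1 to 4. All cKO values fell inside the control range, and replicate 1 was not low. The difference for *Inhbb* was 0.01 (SE 0.07, 95% interval -0.14 to 0.16, adjusted p = 0.99). Of its 4300 exonic bases, 122 overlap the non-coding gene *Gm41935* on the other strand.

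*Fshr* (ENSMUSG00000032937, chr17:89292380-89508139, reverse strand), the receptor for follicle-stimulating hormone, whose E-box is shown above, was the lowest of the 10 genes. It had 16.4, 19.6, 22.4 and 18.3 TPM in control 1 to 4 and 18.3, 21.8, 22.3 and 19.2 TPM in cKO 1 to 4. All cKO libraries lay inside the control range. The log2 fold change of *Fshr* was 0.10 (SE 0.12, 95% interval -0.16 to 0.37, adjusted p = 0.83).

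*Kitl* (ENSMUSG00000019966, chr10:99851492-99936278, forward strand) encodes KIT ligand, the Sertoli signal that binds the KIT receptor on differentiating spermatogonia. Its level was 63.4, 61.6, 67.5 and 63.8 TPM in control 1 to 4 and 62.5, 73.9, 68.7 and 61.5 TPM in cKO 1 to 4. Both ends of the cKO values lay outside the narrow range of the controls. The difference was 0.09 (SE 0.07, 95% interval -0.06 to 0.24, adjusted p = 0.73).

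*Clu* (ENSMUSG00000022037, chr14:66190200-66218999, forward strand) encodes clusterin, a chaperone that Sertoli cells secrete in bulk. It had 3754, 4237, 4116 and 4542 TPM in control 1 to 4 and 3831, 4413, 4590.0 and 4558 TPM in cKO 1 to 4, and it ranked between 13 and 15 of all genes in each library. Both replicate 1 libraries were the lowest of their genotype, and 2 cKO libraries lay just above the highest control. The log2 fold change was 0.08 (SE 0.07, 95% interval -0.08 to 0.25, adjusted p = 0.76).

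*Cldn11* (ENSMUSG00000037625, chr3:31203900-31218495, forward strand) encodes claudin 11, the tight junction protein that closes the blood-testis barrier. It came nearest to a difference, with 437, 522, 515 and 545 TPM in control 1 to 4 and 493, 571, 562 and 569 TPM in cKO 1 to 4. Of the cKO libraries, 3 lay above every control and cKO 1 lay among the controls. Its log2 fold change of 0.14 (SE 0.07, 95% interval -0.03 to 0.30) was the largest of the 10 genes with all 8 libraries, with an unadjusted p of 0.091 and an adjusted p of 0.62 by edgeR. That order rests on single libraries, since *Fshr* was above it without control 3 (0.20 against 0.15), as was *Rhox5* without control 4 (0.18 against 0.17) or without cKO 4 (0.16 against 0.13).

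**Figure D2:**
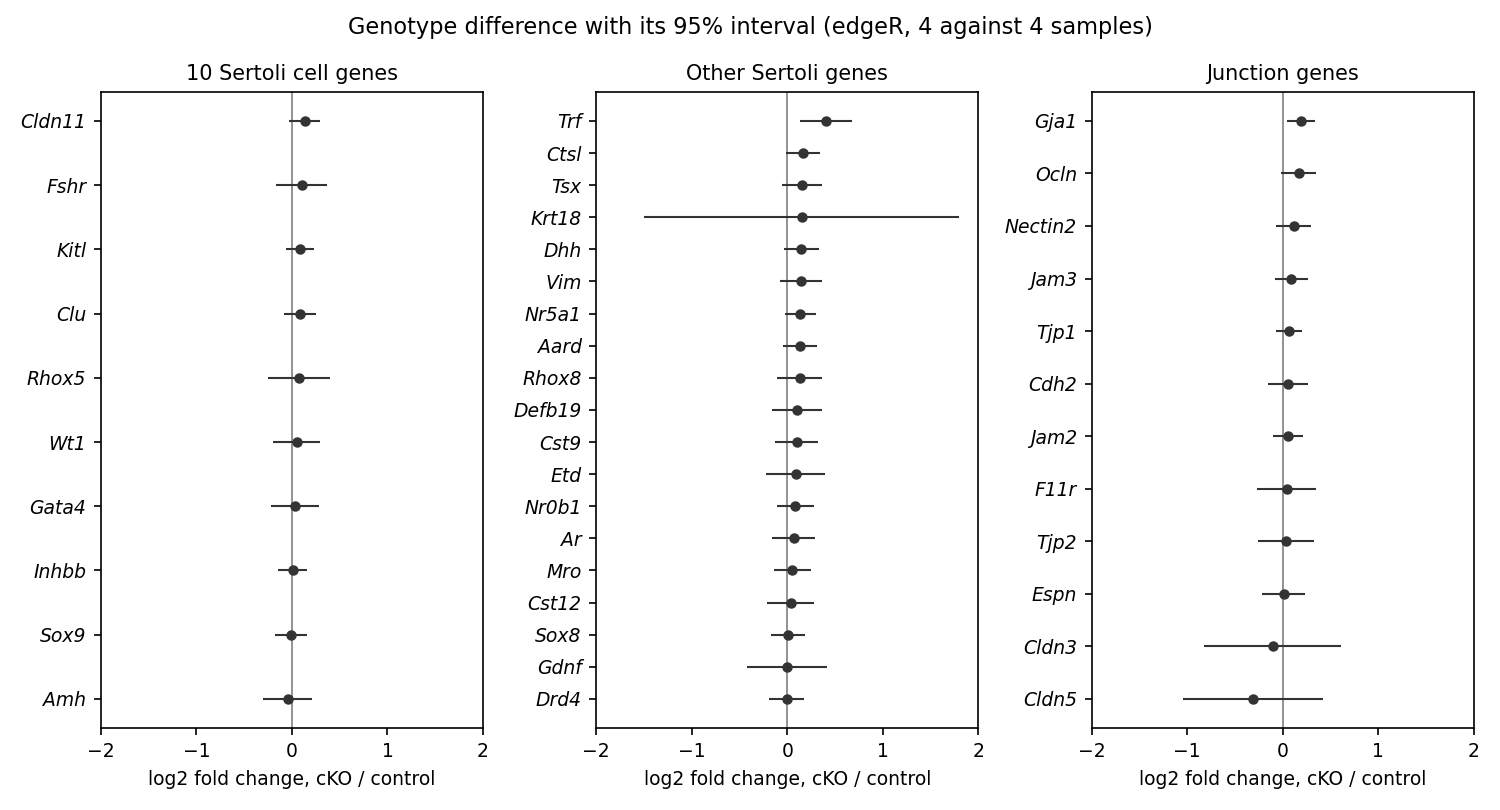
Log2 fold change, cKO over control, with its 95% interval from edgeR (4 against 4 libraries) for the 10 genes, for 19 other Sertoli genes and for 12 junction genes. The intervals of all 10 members cross 0, and *Trf* and *Gja1* are the genes whose intervals lie above it.

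Other genes of the same cell were measured alongside. Of 19 further Sertoli genes, 0 were called by edgeR or DESeq2 and 1 had an unadjusted p under 0.05 by edgeR (8.90% of all genes). This was *Trf*, the iron carrier transferrin, at 27.3 ± 7.28 TPM (SD, n = 4) in control and 30.8 ± 7.64 TPM (SD, n = 4) in cKO, with a log2 fold change of 0.41 (SE 0.13, adjusted p = 0.40 by edgeR) from the counts. The median of the 19 was 0.10, with 17 above 0, and the lowest was *Drd4*, a dopamine receptor, at -0.01. *Defb19*, a defensin, was the highest of them with 4524 ± 652 TPM (SD, n = 4) in control and 4878 ± 589 TPM (SD, n = 4) in cKO. Together with the 19 and the barrier genes, the 10 members made up between 1.71% and 2.27% of all TPM per library.

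Of 12 genes of the blood-testis barrier besides *Cldn11*, 0 were called and 1 had an unadjusted p under 0.05 by edgeR (8.90% of all genes). This was *Gja1*, the gap junction protein connexin 43, with 124 ± 7.50 TPM (SD, n = 4) in control and 140 ± 10.7 TPM (SD, n = 4) in cKO and a log2 fold change of 0.19 (SE 0.07, adjusted p = 0.45 by edgeR). The lowest was *Cldn5*, another claudin, at -0.31 (SE 0.34, adjusted p = 0.80), and the median was 0.06. *Espn*, an actin-bundling protein of Sertoli junctions, had the highest level of these genes, with 260 ± 48.6 TPM (SD, n = 4) in control and 254 ± 22.9 TPM (SD, n = 4) in cKO.

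Of 15 receptors, subunits and co-factors that work with the members, 13 passed the filter and 0 were called, with a median of 0.06. *Inhba*, the beta A subunit, and *Lrp2*, an endocytic receptor, did not pass it. *Kit*, the receptor for *Kitl* on germ cells, had 32.8 ± 3.89 TPM (SD, n = 4) in control and 37.0 ± 6.15 TPM (SD, n = 4) in cKO, a log2 fold change of 0.21 (SE 0.15, adjusted p = 0.71). The receptor for AMH, *Amhr2*, stood at 652 ± 79.8 TPM (SD, n = 4) and 611 ± 38.6 TPM (SD, n = 4), with a difference of 0.01 (SE 0.07, adjusted p = 0.99). The alpha subunit *Inha*, which joins the *Inhbb* product to make inhibin B, was the highest of the partners with 827 ± 104 TPM (SD, n = 4) in control and 889 ± 54.2 TPM (SD, n = 4) in cKO. The only partner with an unadjusted p under 0.05 by edgeR (8.90% of all genes) was *Acvr1b*, an activin receptor, at -0.25 (SE 0.11, adjusted p = 0.54).

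Within each genotype, 1 library stood low for several of the genes. Library orders here are by CPM, the count scaled for library size with edgeR's TMM factors. Over the 10 genes, cKO 1 was the lowest library of its genotype for 7 (40.4% of all genes) and control 1 for 6 (37.8%). Both held for 6 of 10, *Sox9*, *Wt1*, *Gata4*, *Fshr*, *Clu* and *Cldn11*, where replicate 1 was the lowest of both genotypes for 24.8% of all genes tested. *Inhbb*, *Kitl* and *Rhox5* were lowest in replicate 1 of neither genotype, and by CPM each was highest of the cKO libraries in cKO 1. Among the 19 other Sertoli genes, replicate 1 was the lowest of both genotypes for 13. Without replicate 1 of both genotypes, 0 of 10 members were called, and their median was 0.06.

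**Figure D3:**
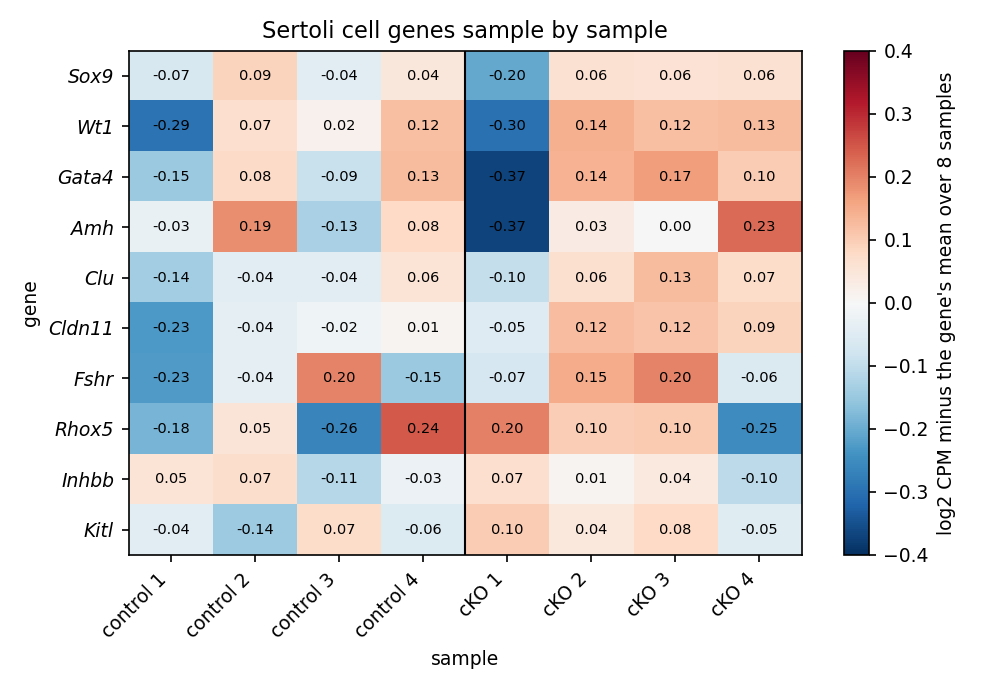
Log2 CPM of each of the 10 genes in each library, minus the mean of the gene over 8 libraries, as colour and number. *Wt1* reads -0.29 in control 1 and -0.30 in cKO 1, *Gata4* and *Amh* read -0.37 in cKO 1, and *Inhbb* and *Kitl* stay between -0.14 and 0.10.

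Markers of other cells also differed in replicate 1, in both directions. The summed level of 5 peritubular myoid genes was 386 TPM in control 1 against 508 to 517 TPM in the other controls, and 349.9 TPM in cKO 1 against 520 to 660 TPM in the other cKO libraries. The sum of 5 endothelial genes was 6.21 TPM in control 1 and 5.07 TPM in cKO 1, against 8.96 to 11.4 TPM elsewhere. The sum of 5 red blood cell genes was also lowest in replicate 1 of both genotypes, though by CPM this held for 2 of the 5 genes. The summed levels of Leydig and macrophage genes were low in control 1 and high in cKO 1, but not every gene followed its sum. The 6 Leydig genes summed to 35.9 TPM in control 1, the lowest control, and to 73.8 TPM in cKO 1, the highest cKO library. That was close to the 71.7 TPM of cKO 4. The Leydig gene *Insl3* made 42.5 TPM of the sum in cKO 1. There *Star*, another Leydig gene, was at 5.88 TPM, the lowest of the cKO libraries. The 6 macrophage genes summed to 24.9 TPM in control 1 and 50.3 TPM in cKO 1, again the lowest and the highest of their genotypes. By CPM, 4 of these 6 genes were lowest in control 1 among the controls (37.8% of all genes).

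Germ cell genes did not share 1 direction in replicate 1 either. The 8 spermatocyte genes summed to 1095 TPM in control 1 and 899 TPM in cKO 1, the lowest of each genotype, and 5 of the 8 were lowest in replicate 1 of both. *Piwil1* and *Ccna1* were instead highest in replicate 1 of both genotypes. *Piwil1* had 271 TPM in control 1 against 76.4 to 134 TPM in the other controls. In cKO 1 it had 64.8 TPM against 21.7 to 27.5 TPM in the other cKO libraries. *Ccna1*, at 2 to 100 counts, had 9.72 TPM in control 1 and 3.93 TPM in cKO 1, against 0.49 to 3.18 TPM elsewhere. The 8 germ cell genes summed to 1365 and 1243 TPM in the replicate 1 libraries, against 1014 to 1207 TPM in the other 6, with *Mael* and *Dmrtb1* high there. *Dmrtb1*, a factor at the entry to meiosis, had 178.5 TPM in control 1 and 115 TPM in cKO 1 against 36.9 to 50.4 TPM elsewhere. *Mael*, a factor of the piRNA pathway, had 465 TPM in control 1 and 310 TPM in cKO 1 against 189 to 292 TPM elsewhere. By contrast *Dazl* had its lowest value of all libraries in control 1, at 340 TPM, and the median difference of the 8 genes, replicate 1 minus the others, was -0.09 in control and 0.16 in cKO on the log2 scale. The part of the cell mixture in the low Sertoli values of replicate 1 was not tested.

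Between genotypes, by contrast, the sums of all lists overlapped, though only narrowly for the spermatocyte genes. For these, cKO 4 at 1106 TPM was the only cKO library above a control, which was control 1 at 1095 TPM. Part of that sum was *Piwil1*, at 76.4 to 271 TPM in control and 21.7 to 64.8 TPM in cKO. It was the only 1 of the 8 spermatocyte genes whose genotypes stood apart by CPM (5.50% of all genes). The ranges of the summed level in control and in cKO were 11336 to 14240 and 11890 to 15689 TPM for the other Sertoli genes. They were 386 to 517 and 349.9 to 660 TPM for myoid genes, 35.9 to 89.7 and 48.6 to 73.8 TPM for 6 Leydig genes, and 24.9 to 51.2 and 38.9 to 50.3 TPM for 6 macrophage genes. For 5 endothelial genes they were 6.21 to 11.4 and 5.07 to 11.2 TPM, and for 5 genes of red blood cells 58.4 to 154 and 81.3 to 201 TPM. No gene of these lists was listed at 0 in any library. The 8 spermatocyte genes summed to 1095 to 1525 TPM in control and 899 to 1106 TPM in cKO, with a median log2 fold change of -0.26, 0 calls by edgeR and 1 by DESeq2. This was *Piwil1*, a PIWI protein of spermatocytes, at -2.05 (SE 0.61, adjusted p = 0.44 by edgeR and 0.035 by DESeq2). Of the 8 germ cell genes, 0 were called by either tool and 3 had an unadjusted p under 0.05 by edgeR (8.90% of all genes). These were *Ddx4* at -0.41 (adjusted p = 0.34), *Dazl* at 0.22 (adjusted p = 0.55) and *Stra8*, the retinoic acid target at the start of meiosis, at 0.20 (adjusted p = 0.54). So had 2 of the 8 spermatocyte genes, *Piwil1* and *Spo11*, the latter at -0.54 (adjusted p = 0.35 by edgeR). Of the 6 macrophage genes 1 had, *Csf1r* at 0.59 (adjusted p = 0.47 by edgeR). Of the Leydig, myoid, endothelial and red blood cell genes, 0 had.

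**Figure D4:**
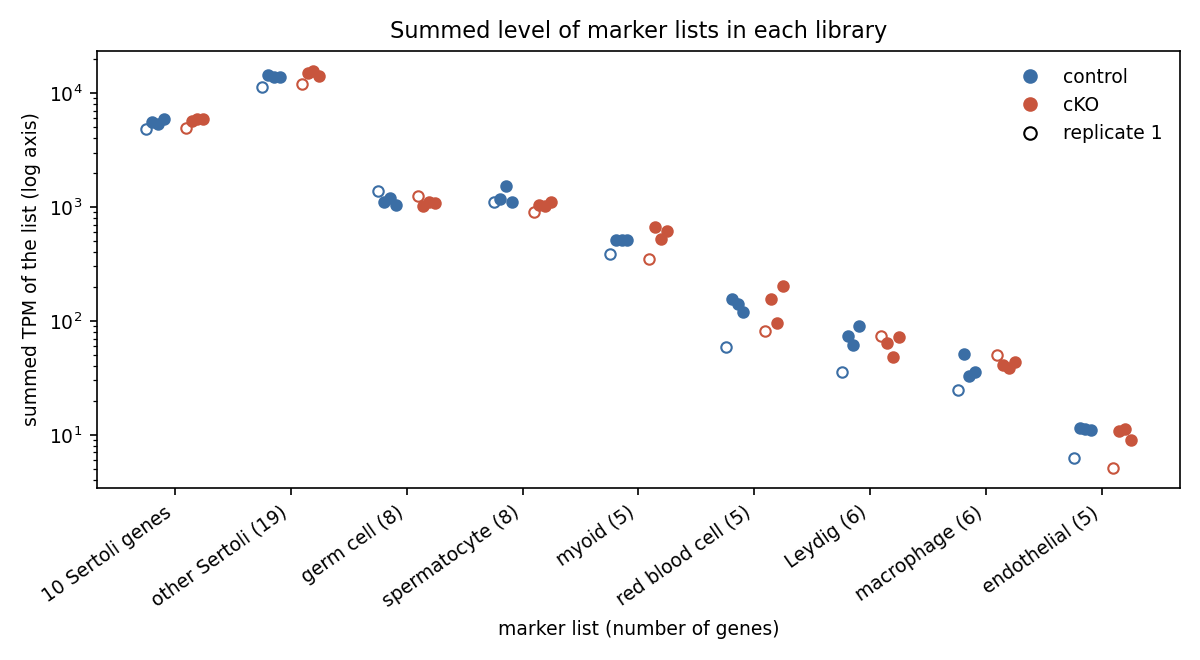
Summed TPM of each marker list in each library on a log axis, with open points for replicate 1. The 10 Sertoli genes sum to between 4814 and 5879 TPM, above the 8 germ cell genes at 1014 to 1365 TPM, and the 2 genotypes overlap for the Sertoli lists. Lists differ in their number of genes, so heights between lists are not shares of cells.

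Across the 8 libraries the 10 genes did not move as 1 block. Over 45 pairs of genes, Pearson's r of log2 CPM had a median of 0.24 and ran from -0.76, for *Amh* with *Kitl*, to 0.97, for *Sox9* with *Gata4*, and 29 pairs were above 0. Next in order came *Wt1* with *Gata4* at 0.92, then *Sox9* with *Amh* and *Cldn11* with *Clu*, both at 0.91. The median r of 1 gene with the other 9 was highest for *Wt1* at 0.70 and below 0 for *Inhbb* at -0.24 and *Kitl* at -0.08. These are descriptions over 8 libraries that share the same preparations and normalization.

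Of 15275 genes compared outside the group, the 8 whose log2 CPM followed the mean of the 10 members most closely had r between 0.97 and 0.99 over 8 libraries. They were *Shisa8*, *Pabpc1l2b*, *Hnrnph2*, *Gstm2*, *Aldh1a3*, *Mro*, *Got1* and *Nt5c3b*. *Mro* is on the list of other Sertoli genes, and *Gstm2*, a glutathione transferase, had the highest level of the 8 with a mean of 856 TPM. When control 1 and cKO 1, the libraries farthest from the median, were left out, r lay between 0.917 for *Nt5c3b* and 0.987 for *Aldh1a3* over 6 libraries. These 6 were among the 8 libraries used to pick the genes, so this r is not a separate check. None of the 8 was called between genotypes, with log2 fold changes from 0.05 for *Mro* to 0.65 for *Pabpc1l2b*, whose adjusted p was 0.75.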

How the data were processed

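RNA of germ cells from 8 mice was measured as polyadenylated, non-stranded, paired-end libraries. The authors aligned reads with STAR 2.7.9a to mm39 (GRCm39) and quantified genes with RSEM 1.3.3. The authors deposited expected counts, which are estimated reads per gene without normalization, and TPM values, which RSEM scales for transcript length and depth within a library. Reads that fit several genes are divided by estimate.

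Expected counts were rounded (15.2% of those above 0 were not whole). Tests covered the 20187 of 55357 genes that reached 1 TPM in 1 or more libraries. A 3-count floor was worth 0.189 to 0.238 CPM, for counting error only. The genotype test was the quasi-likelihood F-test of edgeR 4.0.16 (R 4.3.3) with TMM factors, robust estimation and no covariate. It used all 8 samples, p-values were adjusted by the Benjamini-Hochberg method over the whole table, and genes under 0.05 count as called. Log2 fold changes are from this fit on counts, and levels are TPM unless given as CPM. Alternatives were DESeq2 1.42.0, limma 3.58.1 (voom, and trend on log2(TPM + 1) and log2(TPM + 0.1)), other normalizations and filters, a fit that was not robust, the replicate block, and leaving out samples. The tests were tried on simulated data. Positions and exon overlaps came from GENCODE mouse release M39, and promoter sequence from RefSeq. Summaries used Python 3.11.15, pandas 2.3.3 and numpy 2.4.6.

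The 10 members and all lists were chosen with earlier results of these data known. Genes named besides the members are *Mgat2*, the genes of each list that were called or had the largest, smallest or highest values, and the 8 genes most like the mean of the members by Pearson's r among those with a mean of at least 1 CPM. *Kit*, *Amhr2*, *Dazl*, *Ddx4*, *Stra8*, *Dmrtb1*, *Mael*, *Gfra1*, *Ccna1*, *Spo11*, *Csf1r*, *Insl3*, *Star* and the genes that overlap exons of members or of *Mgat2* were named after their values were seen.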

Additional observations from a re-analysis of the deposited data

Results flagged for a closer look

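Of 20 groups examined (10 genes in 2 genotypes, 4 samples each), 3 held a sample far from the other 3 by Dixon's gap criterion, which chance meets in about 1 of 20 groups. All 3 were cKO 1, and the 10 genes were read in the same libraries, so the 20 groups are not independent. Over the 8 libraries, Pearson's r was 0.97 for *Sox9* with *Gata4*, 0.92 for *Wt1* with *Gata4* and 0.88 for *Sox9* with *Wt1*. The 3 flags thus describe 1 library and cannot be set against that rate. *Sox9* was at 122.6 CPM in cKO 1 against 147.3 to 147.5 CPM in the other cKO samples. *Wt1* was at 226.8 CPM against 303 to 308 CPM. *Gata4* was at 109.4 CPM against 151.8 to 158.9 CPM. The gap made up 0.992, 0.938 and 0.858 of the range, each above the critical value for 4 samples. Without cKO 1, the log2 fold change went from -0.01 to 0.05 for *Sox9*, from 0.05 to 0.14 for *Wt1* and from 0.03 to 0.14 for *Gata4*. In that setting 0 of 10 members were called by edgeR and 1, *Cldn11* (0.17, adjusted p = 0.33), had an unadjusted p under 0.05.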

How the results depend on the processing

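In all 20 other settings tried, 0 of 10 members were called, and the lowest adjusted p of a member lay between 0.13 and 0.83. Some of these settings called 0 genes over the whole table, as given below, and so set no member apart. Member log2 fold changes stayed between -0.13 and 0.20, and their median between 0.03 (without control 1) and 0.10 (without cKO 1). Of 200 member results under these settings, 177 kept their direction and side of the threshold and 23, all of values near 0, changed sign. With single samples left out, *Sox9* ran from -0.0322 (without cKO 2) to 0.0528 (without cKO 1), *Wt1* from -0.0341 (without control 1) to 0.1433 (without cKO 1), *Amh* from -0.1316 (without cKO 4) to 0.0591 (without cKO 1), *Gata4* from -0.021 (without cKO 3) to 0.1402 (without cKO 1), *Rhox5* from -0.0002 (without control 3) to 0.179 (without control 4) and *Inhbb* from -0.0281 (without control 3) to 0.0422 (without cKO 4). The 4 that kept their sign ran from 0.0492 (without control 1) to 0.1956 (without control 3) for *Fshr*, 0.0864 (without control 1) to 0.1746 (without cKO 1) for *Cldn11*, 0.0526 (without control 1) to 0.1275 (without cKO 1) for *Clu* and 0.0526 (without control 2) to 0.1255 (without control 3) for *Kitl*. Without replicate 1 of both genotypes, *Sox9* became 0.03, *Amh* 0.0404 and *Rhox5* -0.0295. *Sox9* became 0.0163 with upper-quartile normalization. *Gata4* became -0.0397 and -0.0402 with limma-trend (pseudocounts 1 and 0.1). *Inhbb* became -0.0016 with DESeq2, -0.0017 with DESeq2 size factors, and -0.0087 and -0.0088 with limma-trend.

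The count of genes called over the whole table, 8, moved far more, to 302 with DESeq2, 18 with upper-quartile normalization, 17 with library totals only, 35 with no TPM filter, and 0 with filterByExpr, limma-voom (1924 genes at an unadjusted p under 0.05), either limma-trend fit or the fit that was not robust. It ran from 0 to 32 when 1 sample was left out, with 24 without control 1, 2 without control 2, 0 without control 3, 32 without control 4, 15 without cKO 1, 1 without cKO 2 and 0 without cKO 3 or cKO 4. It was 855 without replicate 1 of both genotypes. The cause was not tested.

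With the replicate block, 1464 genes and 0 of 10 members were called. No label states whether equal numbers pair the samples. The deviations of same-numbered samples correlated at 0.54 for replicate 1 but at 0.04 for replicate 3, and not every sample correlated best with its own number. The mean r was 0.229 for same numbers and -0.068 for different numbers. Among replicates 2 to 4 it was 0.127 and 0.117. These correlations cannot show whether samples were paired. Among the other lists the replicate block called *Trf*, *Gja1*, *Ddx4*, *Dazl*, *Mael*, *Spo11* and *Piwil1*. Without replicate 1 of both genotypes, *Gja1*, *Spo11* and *Myh11* were called. *Cldn11* had an unadjusted p under 0.05 in both settings, with adjusted p of 0.13 and 0.30.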
